A study of Homo sapiens with 7 samples.

Results

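The 10 genes described here, of the dyskerin complex, telomerase and shelterin, were followed across the deadenylase-silencing arrays of NCI-H520, a cell line established from a squamous cell lung carcinoma. They were DKC1, NOP10, NHP2, GAR1, NAF1, TERT, TERF1, TERF2, TINF2 and ACD, chosen by name, and they are 10 of the 19059 genes that could be named on the array, with 14 of its 42405 probes. All samples were NCI-H520 cells that received 6 µg of pLKO.1 plasmid by cationic liposomes, were put under 6 µg/mL puromycin at 12 h and were collected at 72 h. The 2 control samples carried the empty vector or a non-target shRNA. The other 5 samples carried an shRNA against PARN, CNOT6, CNOT6L, CNOT7 or NOC (Nocturnin, gene symbol NOCT). Each of the 7 groups was 1 sample on 1 array, so the comparison of 1 shRNA with the controls has no replicate check, and its differences are given beside the gap between the 2 controls. Untransfected cells were not analysed here. The labels give the CNOT6L and the NOC shRNA the same target transcript, that of Nocturnin.

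Dyskerin, the product of DKC1, is the pseudouridine synthase of the H/ACA ribonucleoproteins, which guide the modification of ribosomal and spliceosomal RNAs. It works with NOP10, NHP2 and GAR1. The same proteins bind the H/ACA domain of the telomerase RNA, TERC, and keep it stable, while TERT supplies the reverse transcriptase that copies the TERC template onto chromosome ends. Shelterin coats the telomeric repeats and controls the access of telomerase to them. PARN, a poly(A)-specific ribonuclease, trims the oligo(A) tails of TERC and of H/ACA RNAs during their maturation, and inherited loss of PARN, like that of several of the genes described here, is a known cause of telomere disease. The comparison of the PARN shRNA with the controls therefore asks how the mRNAs of the proteins that hold these RNAs stood when PARN mRNA was lower.

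Levels are the log2 of the array's processed signal minus the 75th percentile of that signal on the same array, so that 0 is the brightness of the upper-quartile probe. Because probes differ in brightness for the same amount of RNA, a level of 1 probe, or the sum over a marker list, is followed between arrays and is not ranked between genes or lists. A gene is represented by its brightest probe. Of the 14 probes, 13 were above background on all 7 arrays, and the exception was 1 of the 5 TERF1 probes, which was above background on 0 arrays. Over the whole array 82.0% to 91.5% of probes cleared the background, and the 75th percentile of the processed signal ran from 1360 to 3939. The median SD between spots of the same probe was 0.05 to 0.07 (log2). The arrays shared 1 slide in 2 rows, and the image of the NOC array was extracted on another day than the other 6. Both controls and the PARN and CNOT6 arrays lay in row 1, and the CNOT6L, CNOT7 and NOC arrays lay in row 2 with no control beside them. Slide row and the comparison with controls therefore cannot be told apart for those 3 shRNAs, nor can the NOC shRNA and its extraction day.

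The targeted genes were measured first. PARN mRNA was at 1.07 with the empty vector, 0.88 with the non-target shRNA and -0.16 with the PARN shRNA, a difference of -1.13 from the control mean. In these bulk samples less mRNA in every cell and none in some cells cannot be told apart. CNOT6L and CNOT7 mRNAs were -0.67 and -0.87 from the control mean on their own arrays, with gaps between the controls of 0.07 and -0.09. NOCT mRNA was lowest on the NOC array, at -4.94, which was -0.62 from the empty vector and -0.21 from the non-target shRNA. The difference from the control mean was -0.42, where the controls were 0.41 apart and the CNOT7 array was -0.35 from their mean. The lower NOCT level was thus little beyond the spread of the other arrays. On the CNOT6L array, labelled with the Nocturnin transcript, NOCT mRNA was -0.35 from the empty vector and 0.06 from the non-target shRNA. CNOT6L mRNA on the other shRNA arrays was -0.13 to 0.14 from the control mean. Which transcript the CNOT6L plasmid targets was not tested. No probe could be assigned to CNOT6 by its accession. Of 8 markers of squamous cells, SOX2, KRT6A, DSC3 and PKP1 were above background on all arrays and none was below background on all of them. TP63, KRT5, KRT14 and DSG3 were above background on 2, 4, 1 and 1 arrays. Of the other lists, 3 of 4 adenocarcinoma, 3 of 3 neuroendocrine and 2 of 3 fibroblast markers were above background on all arrays. So were 3 of 3 immune and 3 of 3 endothelial markers, so this measure did not set the squamous list apart. The summed linear level of the squamous list ran from 24.7 to 44.3 times the upper-quartile signal over the 7 arrays, nearly all of it SOX2, and the sum without SOX2 ran from 0.234 to 0.629. The sums ran from 0.699 to 0.883 for adenocarcinoma, 1.03 to 1.33 for neuroendocrine, 0.137 to 0.175 for fibroblast, 0.166 to 0.367 for immune and 0.111 to 0.229 for endothelial markers, and among these COL3A1 was above background on 0 arrays.

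None of the 10 genes changed by 2-fold against both controls upon any of the 5 shRNAs. The share of all probes tested that passed this limit in either direction was 0.959% with the PARN shRNA, 0.841% with CNOT6, 1.21% with CNOT6L, 1.58% with CNOT7 and 2.06% with NOC, so that a count of 0 among 10 genes lies near the background. None of the 10 passed a limit of 1.5-fold either, against a background of 2.53%, 5.45%, 5.47%, 6.21% and 6.81% in the same order. The largest distance of any of the 10 from either control was 0.67, and 0 of the 10 were 2-fold away from even 1 control. Over the 50 differences from the control mean, 24 were larger than the gap between the controls for that gene. That gap had a median of 0.18 and reached 0.39 for ACD.

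**Figure D1:**
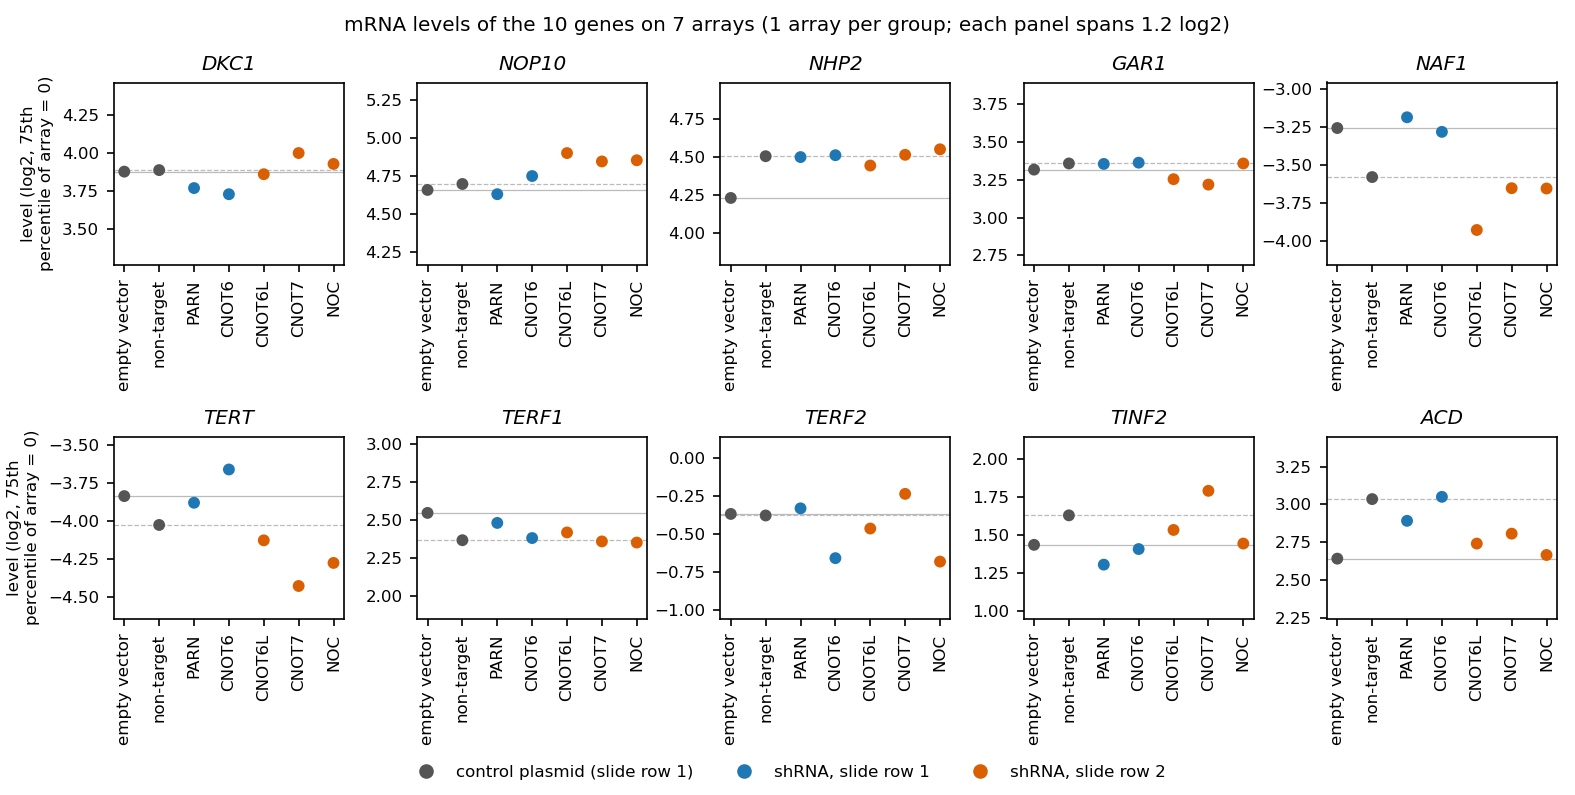
Level of each of the 10 genes (y axis, log2, 75th percentile of the array set to 0) on the 7 arrays (x axis, 1 array per plasmid); every panel has the same height in log2 units, and the solid and dashed lines mark the empty vector and non-target levels. GAR1 moves over 0.14 and TERT over 0.77, and the 3 arrays of slide row 2 lie below row 1 for TERT and NAF1 and above it for NOP10.

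The proteins of the mature H/ACA particle are described first. In this and the following accounts 7 levels are given in the order empty vector, non-target, PARN, CNOT6, CNOT6L, CNOT7 and NOC. DKC1 mRNA (NM_001363) was at 3.88, 3.89, 3.77, 3.73, 3.86, 4.0 and 3.93. The controls differed by only -0.01, the lowest value was on the CNOT6 array and the highest on the CNOT7 array. On the PARN array DKC1 was -0.11 from the empty vector and -0.12 from the non-target shRNA.

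NOP10 mRNA (NM_018648), which encodes the small protein that rests against the catalytic domain of dyskerin, was at 4.66, 4.70, 4.63, 4.75, 4.90, 4.85 and 4.86. The 3 arrays of row 2 were all higher than the 4 arrays of row 1. NHP2 mRNA (NM_017838), whose product binds the RNA and NOP10, was at 4.23, 4.51, 4.50, 4.51, 4.45, 4.52 and 4.55. Here the empty vector array alone was low, and the other 6 lay from 4.45 to 4.55. GAR1 mRNA (NM_018983), whose product joins the particle in its last step of assembly, was at 3.32, 3.36, 3.35, 3.36, 3.25, 3.22 and 3.36. It had the smallest range of the 10, 0.14, and the PARN value was between the controls.

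The upstream 250 bases of DKC1 and NOP10 are shown because these are the gene that gives the complex its name and its partner with row 2 above row 1; capitals mark GGGCGG (GC box) in DKC1 and CACGTG (E-box) in NOP10, on either strand. They are from RefSeq, build GRCh38.p14, at chrX:154762614-154762863 on the plus strand for DKC1 and chr15:34343137-34343386 on the minus strand for NOP10.
DKC1: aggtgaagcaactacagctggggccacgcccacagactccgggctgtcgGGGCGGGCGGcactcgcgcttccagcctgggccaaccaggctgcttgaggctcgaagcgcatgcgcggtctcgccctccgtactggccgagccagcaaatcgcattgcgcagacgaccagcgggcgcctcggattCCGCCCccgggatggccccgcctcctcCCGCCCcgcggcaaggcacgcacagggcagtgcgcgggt
NOP10: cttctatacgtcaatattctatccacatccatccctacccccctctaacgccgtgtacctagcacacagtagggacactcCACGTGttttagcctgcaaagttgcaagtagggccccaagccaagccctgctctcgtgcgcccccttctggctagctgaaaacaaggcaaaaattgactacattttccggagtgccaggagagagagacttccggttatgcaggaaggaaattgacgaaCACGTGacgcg
GGGCGG occurred 4 times in the DKC1 window and CACGTG did not occur, whereas the NOP10 window held CACGTG 2 times, starting at bases 81 and 240, and no GGGCGG. Neither held CCAAT. Windows were at hand for 7 of the 10 genes, DKC1, NOP10, NHP2, GAR1, TERT, TINF2 and ACD. These 7 genes had 9 windows, with 2 each for GAR1 and TINF2, and a gene counted if any of its windows held the motif. GGGCGG was found for 6 of these 7 genes, CCAAT for 3 and CACGTG for 2, NOP10 and TERT. Among all 35116 human windows of this length, read on both strands, 42.6% held GGGCGG, 32.0% CCAAT and 6.34% CACGTG. These shares are per window and the counts are per gene, so they do not compare like with like. These are letter matches in sequence and carry no measurement of binding.

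NAF1 is the assembly factor that holds the place of GAR1 on nascent H/ACA particles. Its mRNA (NM_138386) was at -3.26, -3.58, -3.19, -3.28, -3.93, -3.66 and -3.66, the second widest range of the 10 at 0.74. The PARN array was the highest and the CNOT6L array the lowest, and the 3 arrays of row 2 were all below the 4 of row 1. With the CNOT6L shRNA NAF1 was -0.67 from the empty vector and -0.35 from the non-target shRNA, and its difference from the control mean, -0.51, was the largest of the 50.

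TERT mRNA (NM_198253), the catalytic subunit of telomerase, was read by 10 spots of 1 probe, of which 9 were kept on the empty vector array. Its levels were -3.84, -4.03, -3.88, -3.66, -4.13, -4.43 and -4.28. The SD over spots was 0.05 to 0.22, and it describes the reading within an array and not the spread between cultures. Row 2 was below row 1 again, with the CNOT7 array lowest and the CNOT6 array highest, and the PARN value lay between the controls. The difference from the control mean was -0.50 with the CNOT7 shRNA, -0.34 with NOC, -0.20 with CNOT6L and 0.27 with CNOT6.

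**Figure D2:**
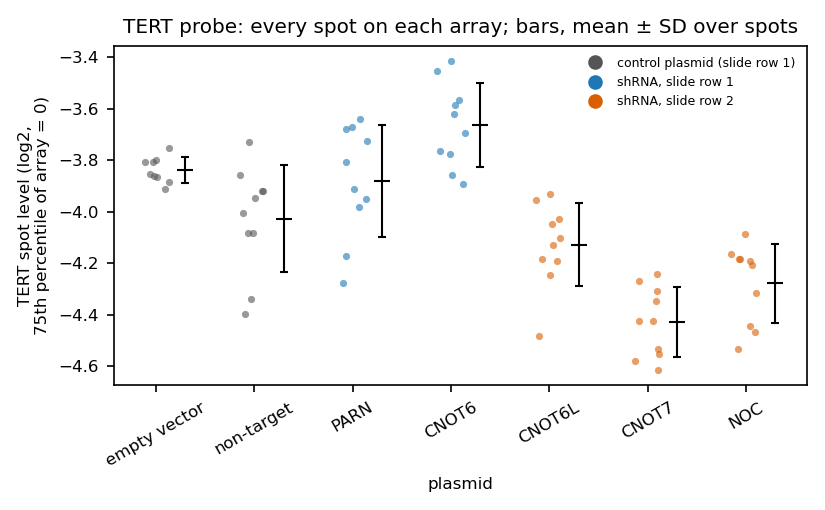
Every kept spot of the TERT probe (y axis, log2, 75th percentile of the array set to 0) by plasmid (x axis); points are single spots, spread sideways at random, and the bar to their right is the mean ± SD over spots. The means run from -4.43 (CNOT7) to -3.66 (CNOT6), and single spots of the row 2 arrays overlap those of the non-target and PARN arrays.

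Among the shelterin genes, TERF1 and TERF2 encode the proteins that bind duplex telomeric DNA, TINF2 the protein that bridges them, and ACD (TPP1) the protein that recruits telomerase. TERF1 mRNA (NM_017489) was at 2.54, 2.36, 2.48, 2.38, 2.42, 2.36 and 2.35, highest with the empty vector. The next brightest TERF1 probe ran from 1.69 to 1.98 and was likewise highest there. Of the other 2 TERF1 probes above background, 1 ran from -1.11 to -0.62 and 1 from -1.06 to -0.59, and both were highest with the non-target shRNA. The probes thus disagreed on the gap between the controls, 0.18 and 0.15 for the brighter 2 and -0.28 and -0.31 for the dimmer 2, and which transcripts each one reads was not tested.

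TERF2 mRNA (NM_005652) was at -0.37, -0.38, -0.33, -0.66, -0.46, -0.23 and -0.68. The controls were almost level, and the CNOT6 and NOC arrays were lower by values of -0.29 and -0.31 from their mean. TINF2 mRNA (NM_012461) was at 1.44, 1.63, 1.31, 1.41, 1.53, 1.79 and 1.44, lowest on the PARN array and highest on the CNOT7 array. ACD mRNA (NM_001082486) was at 2.64, 3.04, 2.89, 3.05, 2.74, 2.81 and 2.67, with 4 of the 5 shRNA arrays between the controls and the CNOT6 array 0.01 above the non-target one.

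With the PARN shRNA the median difference of the 10 genes from the control mean was 0.03, beside -0.01 over all 38091 probes tested. The extremes were TINF2 at -0.23 and NAF1 at 0.23. The median was 0.05 with the CNOT6 shRNA, -0.06 with CNOT6L, 0.04 with CNOT7 and -0.10 with NOC, beside 0.12, -0.01, -0.07 and -0.05 over all probes. The PARN array held the lowest of the 7 levels for 2 of the 10 genes, NOP10 and TINF2, and the highest for NAF1, where 15.1% and 11.2% of all probes were lowest and highest on that array.

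The range over the 7 arrays was under 1 log2 unit for 10 of the 10 genes, and for 72.9% of the 33815 probes above background on all arrays. Its median was 0.36 for the 10 genes and 0.71 for those probes. The 10 are the brightest probes of their genes, and brightness was not matched in this comparison. The dimmest of the 10, NAF1 and TERT, had the widest ranges, 0.74 and 0.77.

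**Figure D3:**
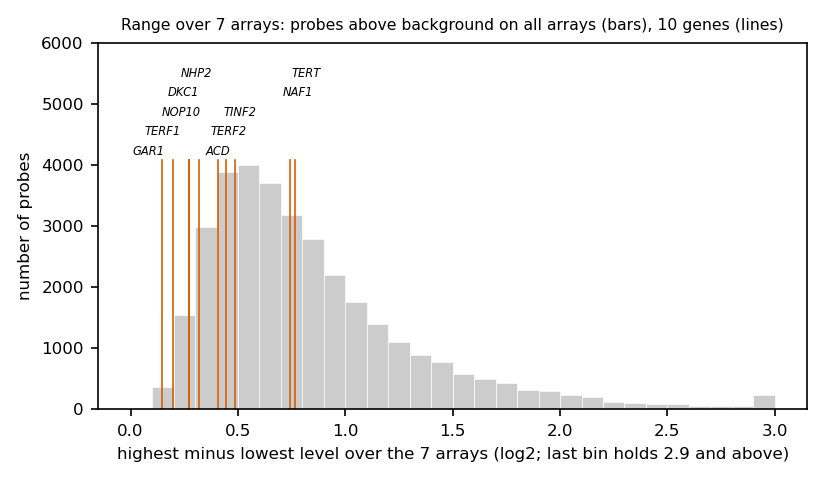
Highest minus lowest level over the 7 arrays (x axis, log2) for probes above background on all arrays (grey bars, number of probes on the y axis, the last bin holding 2.9 and above); lines mark the representative probes of the 10 genes. The 10 lines lie between 0.14 (GAR1) and 0.77 (TERT).

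When the 5 shRNA arrays were set against the 2 controls with limma, no probe of 38091 was called at a Benjamini-Hochberg adjusted p of 0.05, while 1413 were at an unadjusted p under 0.05, 0 of them among the 10 genes. The differences of the 10 genes ran from -0.14 (SE 0.24) for TERT to 0.14 (SE 0.11) for NHP2, with limma adjusted p of 1.0. These shRNAs have different targets, so the comparison asks only for a shared change. The number of probes called was 60 when the empty vector was left out and 10 when the non-target shRNA was, with 0 of the 10 genes among them in either case. None of the 10 genes had all 5 shRNA arrays above or below both controls, an arrangement that 2.80% and 3.52% of probes showed.

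TERT, NAF1 and NOP10 followed the slide rows, and the 3 shRNA arrays of row 2 were set against the 2 of row 1. The squamous markers SOX2 and KRT6A followed the rows as well, SOX2 lower on all 3 arrays of row 2 than on all 4 of row 1 (a difference of -0.52 between the shRNA arrays) and KRT6A higher (1.13), and their part in the values below was not tested. Over all probes limma called 4843 of 38091, or 12.7%, with 1425 higher and 3418 lower in row 2. The number fell when a row 2 array was left out, to 95 without CNOT6L, 391 without CNOT7 and 519 without NOC. It did not fall when the PARN or the CNOT6 array was left out, but those fits left 1 array in row 1. Each of these fits had 1 array fewer, and how much of the fall came from that was not tested. None of the 10 genes was called. TERT had a difference of -0.51 (SE 0.17, limma unadjusted p = 0.0209, adjusted p = 0.0972) and NAF1 of -0.51 (SE 0.16, unadjusted p = 0.0132, adjusted p = 0.0749). NOP10 differed by 0.18 (limma adjusted p = 0.240) and DKC1 by 0.18 (limma adjusted p = 0.233).

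Counting the controls with row 1, 14.7% of probes lay lower on all 3 arrays of row 2 than on all 4 of row 1, as TERT and NAF1 did, and 9.05% lay higher, as NOP10 did. In limma with the controls in row 1, 6.64% of probes were called, and TERT was at -0.43 (adjusted p = 0.134), NAF1 at -0.42 (adjusted p = 0.132) and NOP10 at 0.18 (adjusted p = 0.145). Probes of like brightness moved the same way on average. Among the 9523 probes of the brightness class (1 of 4, by mean level) that held TERT and NAF1, the median difference between the rows' shRNA arrays was -0.23 (quartiles -0.47 and 0.05), so that both genes lay beyond the lower quartile. In the brightest class, which held NOP10 and DKC1, it was 0.04 (quartiles -0.17 and 0.24), and both lay within the quartiles. The values for TERT and NAF1 depended on the scaling. They were -0.28 and -0.30 after quantile normalization, and -0.59 and -0.62 after normexp background correction, where both passed the limma threshold with adjusted p of 0.0309 and 0.0195. Leaving out the scaling adds 1.05, the brightness gap between the rows' shRNA arrays, to every gene alike, which put them at 0.54 and 0.53. Slide row and the shRNAs cannot be told apart in these values.

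Other RNAs of the pathway were taken from lists of 12 factors of H/ACA and telomerase RNA maturation, 4 partners of telomerase, 9 partners at telomeres and 4 core proteins of box C/D particles, the other class of guide RNA particles. At 2-fold against both controls the only one called was PARN itself, lower with its own shRNA. At 1.5-fold TOE1, a deadenylase that trims small nuclear RNAs, was also lower and POT1 higher with the CNOT6L shRNA. With that shRNA 5.47% of all probes tested passed this limit. TOE1, read by 1 spot, was low on all row 2 arrays, at -0.63 (CNOT6L), -0.45 (CNOT7) and -0.52 (NOC) from the control mean. The POT1 call rested on 0.74 from the empty vector, while the SD between its 2 spots was 0.28 to 0.61 over the arrays. TERC, read by 2 spots, was at -0.07, 0.46, 0.75, 0.44, 0.40, 0.35 and 0.42. The PARN array was the highest of the 7, and its 2 spots, 0.74 and 0.76, lay above every spot of the other arrays, of which the highest was 0.51. The difference was 0.82 from the empty vector but 0.29 from the non-target shRNA, and the gap between the controls was -0.53, so the call at 1.5-fold was not reached. The labelling kit starts from poly(A) tails, which mature TERC lacks, and which TERC molecules gave the signal was not tested.

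**Figure D4:**
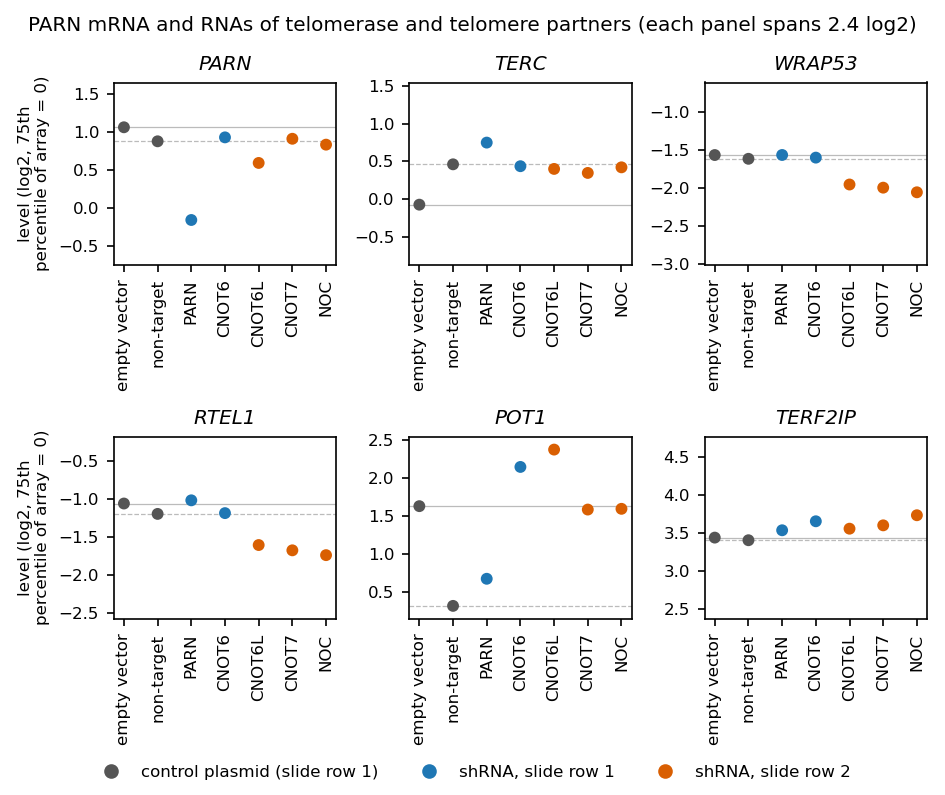
Levels of PARN, TERC, WRAP53, RTEL1, POT1 and TERF2IP (y axis, log2, 75th percentile of the array set to 0) on the 7 arrays (x axis); every panel has the same height in log2 units, and the solid and dashed lines mark the empty vector and non-target levels. The PARN array is lowest for PARN (-0.16) and highest for TERC (0.75), and the row 2 arrays lie below row 1 for WRAP53 and RTEL1.

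WRAP53 (TCAB1), which brings telomerase to Cajal bodies through the CAB box of TERC, was at -1.56, -1.61, -1.56, -1.60, -1.95, -1.99 and -2.06. RTEL1, a helicase that unwinds telomeric loops, was at -1.06, -1.20, -1.02, -1.19, -1.61, -1.68 and -1.74. Both followed the slide rows as TERT and NAF1 did. Of the 29 listed RNAs 6 were lower on all row 2 arrays than on all row 1 arrays, and 3 were higher. The shares over all probes were 14.7% and 9.05%. Between the rows' shRNA arrays RTEL1 differed by -0.57 (limma adjusted p = 0.0260) and passed the threshold, and WRAP53 by -0.42 (limma adjusted p = 0.0519) and did not. The RTEL1 call was lost without the PARN, CNOT6L, CNOT7 or NOC array (limma adjusted p = 0.0586, 0.0848, 0.0946 and 0.0900), and after quantile normalization (0.0529), with array medians as the scale (0.132) and with the deposited log2 table (0.0851).

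In the same comparison 1 of 12 maturation factors was higher, RUVBL1, an ATPase of particle assembly, by 0.43 (limma adjusted p = 0.0409). Another, TOE1, differed by -0.56 (limma adjusted p = 0.0196). None of the 4 telomerase partners, 1 of the 9 telomere partners (RTEL1, lower) and 1 of the 4 box C/D proteins (NOP56, -0.41, limma adjusted p = 0.0371) passed. Of all 29 listed RNAs 4 passed, near the 12.7% of all probes. All 4 calls were lost when the CNOT6L, CNOT7 or NOC array was left out, with limma adjusted p of 0.114 to 0.132 for RUVBL1, 0.0646 to 0.0854 for TOE1 and 0.117 to 0.130 for NOP56. RUVBL1 was also lost without the PARN array (0.101) and NOP56 without the CNOT6 array (0.0514).

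The remaining shelterin subunits are POT1, which binds the single-stranded overhang, and TERF2IP (RAP1), which binds TERF2. POT1 was at 1.63, 0.32, 0.68, 2.15, 2.38, 1.59 and 1.60, and its controls were 1.31 apart. Its probe was read unevenly, with an SD between spots of 0.28 to 0.61. TERF2IP was at 3.44, 3.41, 3.54, 3.66, 3.56, 3.61 and 3.74, so that all 5 shRNA arrays were above both controls, by 0.10 to 0.29 over the empty vector and by 0.13 to 0.33 over the non-target shRNA. This arrangement, which 2.80% of all probes showed, was seen in 2 of the 29 listed RNAs by their brightest probe. They were TERF2IP and the box C/D protein SNU13 (4.15, 4.13, 4.16, 4.49, 4.34, 4.26 and 4.30). The other SNU13 probe did not show it, with 2.21 for the empty vector, 1.88 for the non-target shRNA and 2.13 for PARN.

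The genes whose course over the 7 arrays was most like that of DKC1 were MAGOHB, NUP93 and COG4. The root mean square distance of their centred log2 levels from those of DKC1 was 0.02 for each, over 21232 candidate probes. For TERT they were GBP4, SYT2 and MMP19, at 0.04, 0.04 and 0.05. These distances describe the 7 arrays and carry no test.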

How the data were processed

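Total RNA of 7 NCI-H520 cultures, 1 per plasmid, was labelled with Cy3 and hybridised to Agilent human gene expression arrays. The authors deposited scanner tables from Agilent Feature Extraction 10.7.3.1 (per the submitters' processing notes), in which the processed signal is an intensity after background subtraction. They also deposited a table of log2 values, in which each probe's median over the arrays was 0 and differences between arrays, after removal of 1 constant per pair of arrays, matched the scanner values within 0.02 for 100% of probes above background on all 7 arrays. Its columns were used as an alternative. The authors' method behind that table is not given in the sources used here.

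Control spots and spots marked as outliers were left out. A probe with every spot marked kept its spots, which held for 4 to 30 probes per array. Log2 processed signals were averaged over the spots of a probe, and each array's 75th percentile was subtracted. A probe counted as above background when the scanner's own flag marked 50% or more of its spots, outlier spots included, as well above it. Accessions were matched to RefSeq gene symbols (GRCh38.p14, names only), which named 24823 of 42405 probes. The scanner tables give hg19, so no coordinate of a probe is printed.

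A gene was called upon an shRNA when it was at least 2-fold away, in the same direction, from both controls. Groups of arrays were compared with limma 3.58.1 in R 4.3.3 (two-sided moderated tests, trended prior, Benjamini-Hochberg adjustment at 0.05) on 38091 probes above background on at least 2 arrays. The step was checked on simulated data with less spread than these arrays and no difference between slide rows. That check therefore does not say how small a change could be found here. Nothing in the labels says that arrays came from repeat cultures of 1 condition, and the p-values measure only the spread between these arrays. The number of arrays limits the precision. The 10 genes and all gene lists were chosen with earlier results of these data known. All 10 genes were named by rule, with TERC, WRAP53, POT1, TERF2IP, RTEL1, any other listed gene that was called, and the 3 genes most like DKC1 and TERT. Alternatives were other scalings, normexp background correction (offset 50, on median signals), the deposited log2 table, a 1.5-fold limit, other filters, the slide row as a term, single arrays against the controls in limma, and leaving out each array.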

Additional observations from a re-analysis of the deposited data

Results flagged for a closer look

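The 5 shRNA arrays were searched, for 19 RNAs named in the report, for 1 array far from the other 4. None of the 10 genes of the dyskerin complex, telomerase and shelterin had such an array. The telomerase RNA TERC did: on the PARN array it was at 0.75, while the other 4 shRNA arrays lay between 0.35 and 0.44, so the gap was 0.778 of the whole range, beyond the critical value of 0.71. About 1 in 20 groups passes this limit by chance, so 1 of 19 is near the chance share for these RNAs. Over all 7 arrays the TERC gap to the next highest was 0.350 of the range. TERC was at 0.46 in the non-target control and at -0.07 with the empty vector. Some of the 19 were named because they were called, and the other listed RNAs were not searched. TERC was thus not shown to be the only such case. The maturation factor NOLC1 was at 1.98 on the CNOT6L array, and the other 4 shRNA arrays lay between 2.27 and 2.35. MTREX was at 2.44 on the CNOT7 array, and the other 4 lay between 2.23 and 2.29.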

How the results depend on the processing

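No paired analysis was possible because every group holds 1 sample with the same replicate number and no number links samples of different groups. The count of the 10 genes called stayed at 0 for every shRNA under the alternatives run, with 1 exception. TERF2 was called lower with the CNOT6 shRNA (a count of 1) when arrays were not scaled. The CNOT6 array was the dimmest, with a 75th percentile of 1360, and unscaled values keep that difference. limma with a single array against both controls called 0 of the 10 for each shRNA, but it takes the spread from the 2 controls alone and is no replicate check. The common comparison of the 5 shRNAs with the controls called 0 of the 10 under all 18 alternatives, with adjusted p no lower than 0.640. With no scaling it called 13 probes over the whole array.

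In the main processing the medians of the 10 genes lay between -0.10 (NOC) and 0.05 (CNOT6). They moved by more than the SD between their values against either control as follows. For CNOT6 those values were 0.0103 and 0.0104, so nearly any change counted as a move. With no scaling between arrays the medians keep the differences in array brightness. They were then -0.30 for PARN, -0.96 for CNOT6, 0.34 for CNOT6L, 0.57 for CNOT7 and 0.11 for NOC. With array medians as the scale they were -0.00601, -0.15, 0.00612, 0.18 and 0.00284. Quantile normalization gave -0.0878 for CNOT6 and -0.12 for CNOT6L. Normexp gave 0.0517 for PARN and -0.00462 for CNOT6. The deposited log2 table gave 0.0169 for PARN, 0.0260 for CNOT6 and -0.0214 for CNOT6L. With outlier spots kept the CNOT6 median was 0.05003. Leaving out 1 control gave -0.00446 to 0.00441 for PARN, 0.0103 to 0.0104 for CNOT6 and -0.0454 to 0.0162 for NOC.

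Between slide rows 2 of the 10 genes were called with array medians as the scale (DKC1 and NOP10, higher), 8 with no scaling and 2 with normexp (TERT and NAF1, lower), and 0 under the other alternatives. NOP10 was at 0.39 and 1.22 in the first 2 of these. With no scaling, every difference moves up by 1.05, the gap in array brightness that scaling removes, and this alone turned the values to 0.54 for TERT, 0.53 for NAF1, 0.47 for RTEL1, 0.49 for TOE1 and 0.64 for NOP56. RUVBL1, RTEL1, TOE1 and NOP56 all lost their calls with the deposited log2 table (adjusted p = 0.0760, 0.0851, 0.0899 and 0.133). With array medians as the scale, RTEL1, TOE1 and NOP56 did (0.132, 0.113 and 0.166), and RUVBL1 did with the controls counted in row 1 (0.0692). Over all probes the rows gave 4843 calls, 26610 with no scaling, 14784 with normexp, 2530 with the controls counted in row 1 and 0 with the deposited log2 table. Higher calls outnumbered lower ones with array medians as the scale, 4430 against 1512, and stood at 1868 against 2066 after quantile normalization.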
